A study of Mus musculus with 4 samples.

Results

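The choroid plexus is the folded epithelium of the brain ventricles that makes cerebrospinal fluid (CSF), and a sheet of it hangs in the lateral ventricle directly beside the hippocampus. Its cells move sodium, chloride, bicarbonate and water from blood to ventricle and potassium the other way, seal the space between them with leaky tight junctions, and release hormone carriers and growth factors into the CSF. The genes described here are 33 genes known from this epithelium other than Ttr, which encodes its best known product, transthyretin. The genes were selected by symbol from a list drawn up when earlier results of these same arrays were known, and each gene was read from its brightest transcript cluster, by the mean of the arrays. Of the 33 genes, 31 had a transcript cluster with 1 gene symbol, out of 19938 genes measured in this way. Enpp2 and Prlr had none and were not analysed here. Because the list was drawn up with the contrast in view, the differences of the members are given as a description.

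Expression was measured in total RNA of dissected hippocampus from male C57BL/6JJmsSlc mice aged 11 to 12 weeks, on Affymetrix GeneChip Mouse Gene ST arrays. Mice of the R-SDS group (repeated social defeat stress, 2 arrays) met an aggressive male ICR mouse for 10 min a day over 10 days and otherwise lived behind a divider next to it. Control mice (2 arrays) lived in divided cages beside a partner that was changed each day, without defeat. The study calls its R-SDS array mice susceptible, by their avoidance of an ICR mouse, whereas the labels give the stress alone. Levels are log2 values after RMA, a procedure that removes background, aligns the arrays and summarises the probes of a transcript cluster, so that a difference of 1 is a doubling. The arrays are called by the numbers that the labels give them, R-SDS 1, R-SDS 2, Control 1 and Control 2. The interquartile range of all 35556 rows came to 3.37 in R-SDS 1 and 3.11 in R-SDS 2, against 3.34 in Control 1 and 3.06 in Control 2, so the width of the distribution went with the number. Each R-SDS array is therefore also set against the control of its own number. What the number stands for is not given in the labels.

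The choroid plexus genes separated 1 mouse from the other 3. The median level of the 31 genes lay at 7.69 in R-SDS 1, with 5.56 in R-SDS 2, against 5.57 in Control 1 and 5.64 in Control 2. R-SDS 1 was the highest array for 30 of the 31 genes, with the collagen gene Col9a3 as the exception, and it exceeded each other array by over 1 for 25 of them. Over all genes, 0.316% (63 genes) did so, and the 25 members were part of these 63. No member was highest in R-SDS 2, which was the lowest array for 15 members, while Control 2 was the lowest for 13 and Control 1 for 3. In bulk tissue, more cells of a type and more RNA per cell cannot be told apart.

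**Figure D1:**
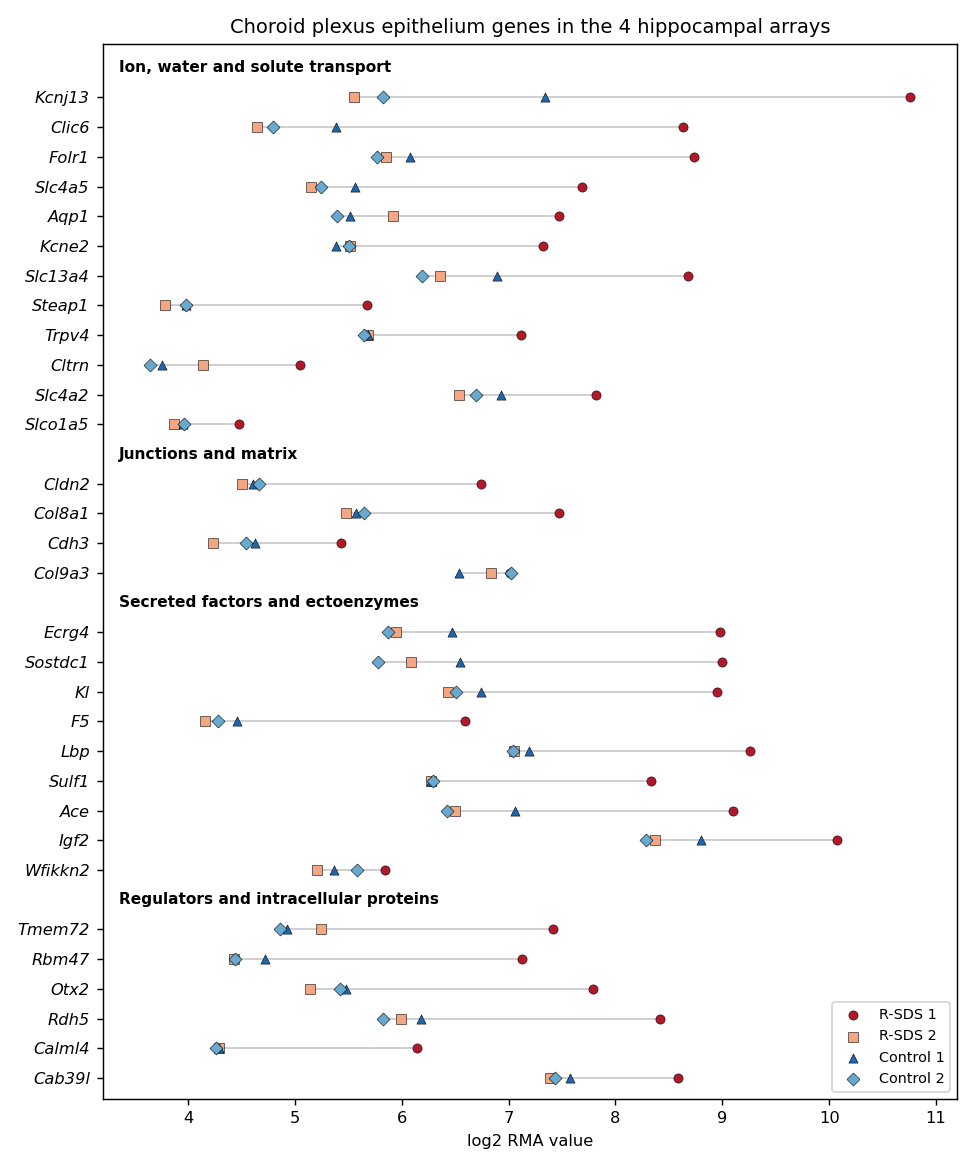
Log2 RMA value (horizontal axis) of each measured choroid plexus gene (rows, grouped by role) in R-SDS 1, R-SDS 2, Control 1 and Control 2, with 1 point per array and a grey line over the range of the gene. R-SDS 1 lies to the right of the other 3 arrays for 30 of the 31 genes, and R-SDS 2 lies among or below the controls for most of them.

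Between the groups, all 31 genes averaged higher in the R-SDS mice, as 53.4% of all genes did, and the median log2 difference was 1.01, beside 0.0089 for all genes. No member passed an adjusted p of 0.05 in limma (all 31 had an adjusted p of 1), and 0% of the 21789 transcripts did. At an unadjusted p under 0.05, limma counted 2 of the 31 members, beside 0.983% of all genes, and the methods' t-test counted 0, beside 2.02% of all transcripts. By limma's p, these 2 genes, Aqp1 and Cltrn, were past the study's cut-offs (a log2 difference over 0.5 and an unadjusted p under 0.05). In this direction 0.135% of all genes passed both by limma. With the p of the methods' t-test, 0 members passed both. Both R-SDS arrays lay above both controls for 4 members (Aqp1, Kcne2, Cltrn and Tmem72), beside 9.52% of all genes. Without R-SDS 1, 24 of the 31 differences turned negative and the median was -0.12. Without R-SDS 2, the median was 2.11. That last comparison sets 1 array against 2, and the members were listed with earlier results of these arrays known.

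Set against the control of the same number, the mice differed in the same way. R-SDS 1 was above Control 1 for all 31 genes, by a median of 2.04 and by over 1 for 26 of them, where 0.426% of all genes were higher by over 1. R-SDS 2 was above Control 2 for 14 genes and below it for 17, with a median of -0.01, and 0 members were higher by over 1, beside 0.0251% of all genes. In this second pair 30 members differed by less than 0.5 in either direction, and the exception was Aqp1 (0.53). Across the 31 genes, the differences of the first pair and of the second pair had a Pearson r of 0.18 and a Spearman rho of 0.22 (0.30 for r without Aqp1 and Cltrn, the genes farthest from the median of the second pair). These are correlations across genes of the same 4 arrays and genes are not independent replicates.

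**Figure D2:**
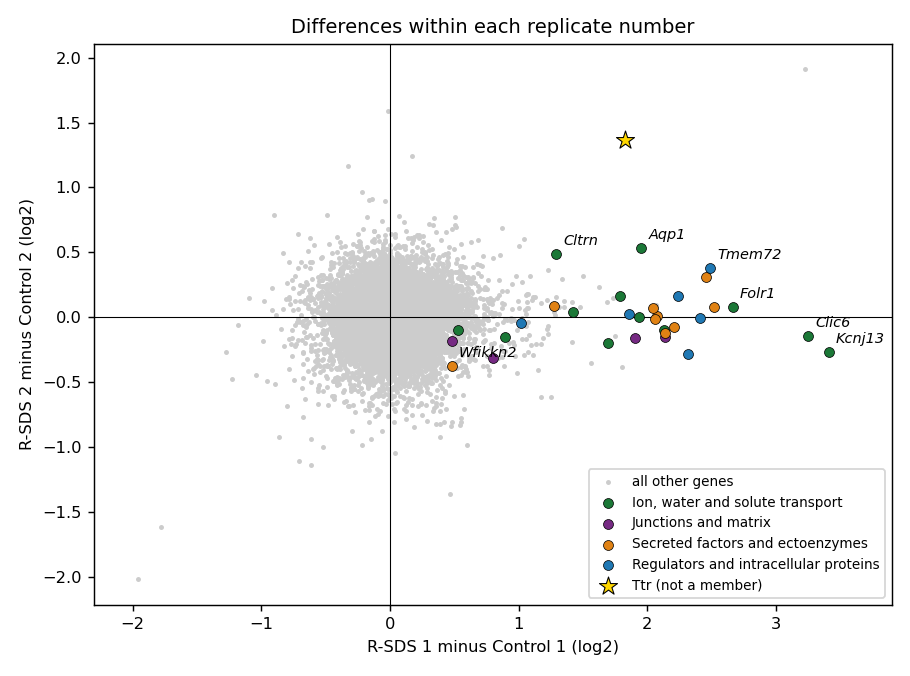
Log2 difference of R-SDS 1 minus Control 1 (horizontal axis) and of R-SDS 2 minus Control 2 (vertical axis) for all other genes (grey), the 31 choroid plexus genes (coloured by role) and Ttr (star). The choroid plexus genes spread from 0.48 to 3.41 along the horizontal axis and stay between -0.37 and 0.53 on the vertical axis.

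Genes of ion, water and solute transport were the largest group, with 12 genes measured, all higher in R-SDS 1 than in Control 1 by a median of 1.86. Kcnj13, an inwardly rectifying potassium channel of the CSF-facing membrane, measured 10.75 in R-SDS 1 and 5.56 in R-SDS 2, against 7.34 in Control 1 and 5.83 in Control 2. Its difference of 3.41 within number 1, a 10.6-fold higher value, was the highest of all 19938 genes, whereas R-SDS 2 was the lowest of the 4 arrays. Clic6, of the chloride intracellular channel family, measured 8.63 in R-SDS 1 and 4.65 in R-SDS 2, against 5.38 in Control 1 and 4.79 in Control 2. R-SDS 1 was thus 9.50-fold above Control 1 and R-SDS 2 again below both controls. The folate receptor gene Folr1, through which the epithelium passes folate into the CSF, measured 8.74 and 5.85 in R-SDS 1 and 2, against 6.07 and 5.77 in Control 1 and 2, so that R-SDS 2 lay between the controls.

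Carriers of bicarbonate gave unequal differences. Slc4a5, a sodium bicarbonate cotransporter of the CSF-facing membrane, measured 7.69 and 5.15 in R-SDS 1 and 2, against 5.56 and 5.24 in Control 1 and 2. Slc4a2, the anion exchanger of the blood-facing membrane, which many other cell types also use, measured 7.82 and 6.54 in R-SDS 1 and 2, against 6.93 and 6.69 in Control 1 and 2. The difference within number 1 was 2.13 for Slc4a5 and 0.89 for Slc4a2, and for both genes R-SDS 2 was below either control. Slc13a4, a sodium sulfate cotransporter, measured 8.68 and 6.36 in R-SDS 1 and 2, against 6.89 and 6.19 in Control 1 and 2. The group difference was 1.02 (SE 0.75) for Slc4a5, 0.37 (SE 0.39) for Slc4a2 and 0.97 (SE 0.71) for Slc13a4, and none of the 3 was past an unadjusted p of 0.05 in limma.

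The water channel gene Aqp1 was one of the few members that stood higher in both R-SDS mice. It measured 7.47 in R-SDS 1 and 5.92 in R-SDS 2, against 5.52 in Control 1 and 5.39 in Control 2, so that the groups did not overlap (means 6.70 ± 1.10 and 5.46 ± 0.09, SD, n = 2 each). The difference of Aqp1 was 1.24 (SE 0.46) in limma, and 0.47 without R-SDS 1. Cltrn encodes collectrin, which helps amino acid transporters to the membrane in kidney, and measured 5.05 and 4.14 in R-SDS 1 and 2, against 3.76 and 3.65 in Control 1 and 2. Its difference was 0.89 (SE 0.29), and 0.43 without R-SDS 1, with all 4 values near the lower end of the scale. Kcne2, a beta subunit of voltage-gated potassium channels, measured 7.32 and 5.51 in R-SDS 1 and 2, against 5.39 and 5.51 in Control 1 and 2. Its groups were apart only by 0.0053, the gap between R-SDS 2 and Control 2.

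Trpv4, a calcium-permeable channel that responds to osmotic swelling, measured 7.11 and 5.69 in R-SDS 1 and 2, against 5.69 and 5.65 in Control 1 and 2, a level shared by 3 arrays to within 0.0411. Steap1, of a family of metal reductases, measured 5.68 and 3.79 in R-SDS 1 and 2, against 3.98 in both controls. The organic anion transporter gene Slco1a5 had the smallest difference within number 1 of the transport genes (0.52), at levels of 4.48 and 3.87 in R-SDS 1 and 2, against 3.96 in both controls.

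Kcne2 and Clic6 lie near each other in the mouse genome, with 5 protein-coding genes between them in the RefSeq table of GRCm38.p6, and they were the 1 pair of members with at most 10 genes between. Of the genes between them, 4 were measured and none followed the pair. Within number 1 the differences were 0.42 for Smim11, 0.17 for Fam243, -0.0652 for the potassium channel subunit gene Kcne1 and -0.0235 for the calcineurin regulator gene Rcan1, beside 1.94 for Kcne2 and 3.25 for Clic6.

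Of the 4 junction and matrix genes, Cldn2 and Col8a1 followed the transport genes and Cdh3 and Col9a3 less so. Cldn2, the claudin that makes tight junctions permeable to cations, measured 6.74 in R-SDS 1 and 4.51 in R-SDS 2, against 4.61 in Control 1 and 4.66 in Control 2. Col8a1, a chain of a short network collagen, measured 7.47 and 5.48 in R-SDS 1 and 2, against 5.57 and 5.64 in Control 1 and 2. In both genes R-SDS 2 was the lowest array and R-SDS 1 stood above the rest. Cdh3, encoding P-cadherin of adherens junctions, measured 5.43 and 4.23 in R-SDS 1 and 2, against 4.63 and 4.55 in Control 1 and 2. Col9a3, a chain of a fibril-associated collagen also known from cartilage, measured 7.02 and 6.84 in R-SDS 1 and 2, against 6.53 and 7.02 in Control 1 and 2. The value of R-SDS 1 for Col9a3 lay just below that of Control 2, so the groups overlapped, and its difference turned to -0.0967 without Control 1. All 4 genes were lower in R-SDS 2 than in Control 2, with differences of -0.31 to -0.15.

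Secreted factors and ectoenzymes (9 genes measured) had a median difference of 2.08 within number 1 and of 0.01 within number 2. Ecrg4, the precursor of the peptide augurin, measured 8.98 in R-SDS 1 and 5.95 in R-SDS 2, against 6.47 in Control 1 and 5.87 in Control 2. Sostdc1, a secreted antagonist of BMP and Wnt signals, measured 9.0 and 6.09 in R-SDS 1 and 2, against 6.55 and 5.78 in Control 1 and 2. Both genes had Control 1 above R-SDS 2. Kl encodes klotho, a coreceptor for the hormone FGF23 that is also shed into the CSF, and measured 8.95 and 6.43 in R-SDS 1 and 2, against 6.74 and 6.51 in Control 1 and 2. Ace, the angiotensin-converting enzyme at the cell surface, measured 9.10 and 6.49 in R-SDS 1 and 2, against 7.06 and 6.42 in Control 1 and 2.

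The sulfatase gene Sulf1, whose product trims heparan sulfate outside the cell, showed the pattern at its plainest. It measured 8.33 in R-SDS 1 and 6.28 in R-SDS 2, against 6.27 in Control 1 and 6.29 in Control 2, so that R-SDS 2 lay between nearly equal controls. Lbp, the lipopolysaccharide-binding protein gene, measured 9.26 and 7.05 in R-SDS 1 and 2, against 7.19 and 7.04 in Control 1 and 2. F5, the gene of coagulation factor V, measured 6.59 and 4.16 in R-SDS 1 and 2, against 4.46 and 4.28 in Control 1 and 2. For Lbp and F5, too, R-SDS 1 alone was high.

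Igf2 and Wfikkn2 differed less. Igf2, a growth factor of the choroid plexus and also of the meninges, measured 10.07 and 8.37 in R-SDS 1 and 2, against 8.80 and 8.29 in Control 1 and 2. Its difference within number 1 (1.27) was the second lowest of this group. Wfikkn2, which encodes a secreted protein that binds members of the TGF-beta family, measured 5.84 and 5.21 in R-SDS 1 and 2, against 5.37 and 5.58 in Control 1 and 2. The group difference of Wfikkn2 was 0.0534 (SE 0.23), the smallest among the members, and it turned to -0.0544 without Control 1. A dimmer transcript cluster of Wfikkn2 differed by 0.0320, with 0.22 within number 1 and -0.16 within number 2.

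Regulators and intracellular proteins (6 genes measured) had the highest median difference within number 1 of the 4 roles, 2.28. Otx2, the homeobox transcription factor that the choroid plexus needs to form and to keep its identity, measured 7.79 in R-SDS 1 and 5.14 in R-SDS 2, against 5.47 in Control 1 and 5.42 in Control 2. Rbm47, an RNA-binding protein of epithelia, measured 7.12 and 4.43 in R-SDS 1 and 2, against 4.72 and 4.44 in Control 1 and 2. Both were 4.98-fold and 5.31-fold higher in R-SDS 1 than in Control 1, and both were lowest in R-SDS 2. Rdh5, a retinol dehydrogenase best known from the retinal pigment epithelium, measured 8.42 and 5.99 in R-SDS 1 and 2, against 6.18 and 5.83 in Control 1 and 2.

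Tmem72, a transmembrane protein gene, was the fourth member whose groups did not overlap. It measured 7.41 in R-SDS 1 and 5.24 in R-SDS 2, against 4.92 in Control 1 and 4.86 in Control 2. The group difference of Tmem72 was 1.43 (SE 0.64), and 0.35 without R-SDS 1. Calml4, a calmodulin-like protein gene, measured 6.14 and 4.29 in R-SDS 1 and 2, against 4.29 and 4.26 in Control 1 and 2. Cab39l, a scaffold of the LKB1 kinase that is broadly expressed, measured 8.58 and 7.39 in R-SDS 1 and 2, against 7.57 and 7.43 in Control 1 and 2. Its difference within number 1 was 1.01, less than that of the other 5 genes of this group.

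Since Otx2 was a member and the members differed together in R-SDS 1, their promoters were searched for TAATCC on either strand, the core to which OTX homeodomains bind. RefSeq promoters (GRCm38.p6, from 250 bases before to 50 bases after a transcription start) matched 25 of the 33 members, with 41 promoters in all. The core was found in 5 of these 41 promoters (12.2%), of Rbm47, Otx2, Ace, Cltrn and Igf2, and in 7.06% of all 32851 promoters of this length. Promoters of the 3 of these genes with the largest difference within number 1 are shown, with the core in capitals, since they let the matches be read beside the values of the genes. Each is written from 5′ to 3′ along its gene. In Rbm47 (chr5:66151905-66152204, minus strand, 1 of 3 promoters) and Otx2 (chr14:48665060-48665359, minus strand, 1 of 4) the match runs on the reverse strand and starts at position -220 and -211 from the start site, and in Ace (chr11:105967698-105967997, plus strand, 1 of 2) it lies on the forward strand at -27.
Rbm47: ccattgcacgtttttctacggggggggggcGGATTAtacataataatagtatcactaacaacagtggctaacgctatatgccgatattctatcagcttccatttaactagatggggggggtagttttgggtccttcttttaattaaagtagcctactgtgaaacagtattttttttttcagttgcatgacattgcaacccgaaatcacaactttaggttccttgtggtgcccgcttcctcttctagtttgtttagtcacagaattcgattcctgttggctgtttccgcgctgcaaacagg
Otx2: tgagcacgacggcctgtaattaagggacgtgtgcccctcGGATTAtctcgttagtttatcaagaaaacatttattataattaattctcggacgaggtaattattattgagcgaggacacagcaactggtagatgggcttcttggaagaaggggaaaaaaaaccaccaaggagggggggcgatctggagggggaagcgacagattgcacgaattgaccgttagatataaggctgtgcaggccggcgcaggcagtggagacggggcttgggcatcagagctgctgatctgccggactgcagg
Ace: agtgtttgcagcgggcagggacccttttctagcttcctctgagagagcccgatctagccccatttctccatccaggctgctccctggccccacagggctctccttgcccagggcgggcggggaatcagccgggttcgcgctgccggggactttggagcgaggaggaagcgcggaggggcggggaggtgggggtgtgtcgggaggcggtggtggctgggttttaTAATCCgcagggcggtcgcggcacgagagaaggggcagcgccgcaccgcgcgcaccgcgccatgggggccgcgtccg
A match describes these letters only, and binding was not measured. The 5 genes with the core differed by 1.27 (Igf2) to 2.41 (Rbm47) within number 1. That lies inside the range of all 31 measured members, 0.48 to 3.41 with a median of 2.04. Whether the core has a part in the differences was not tested.

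The controls also differed from each other, in fewer genes and by less. Control 1 exceeded Control 2 by over 0.5 for 7 members, beside 1.76% of all genes, and the median over the members was 0.14. The 7 genes were Kcnj13 (1.52), Sostdc1 (0.77), Slc13a4 (0.70), Ace (0.64), Ecrg4 (0.60), Clic6 (0.59) and Igf2 (0.52). For each of these 7 genes R-SDS 2 lay below Control 1 as well. The members with a larger difference between the controls tended to have a larger one between the R-SDS mice, which uses the other 2 arrays. Over the 31 genes, Pearson's r was 0.80 and Spearman's rho 0.67, and r was 0.61 without Kcnj13 and Col9a3. The same relation over all 19938 genes had an r of 0.52 and a rho of 0.56, and the width of the distribution, which goes with the number, is shared by both axes.

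**Figure D3:**
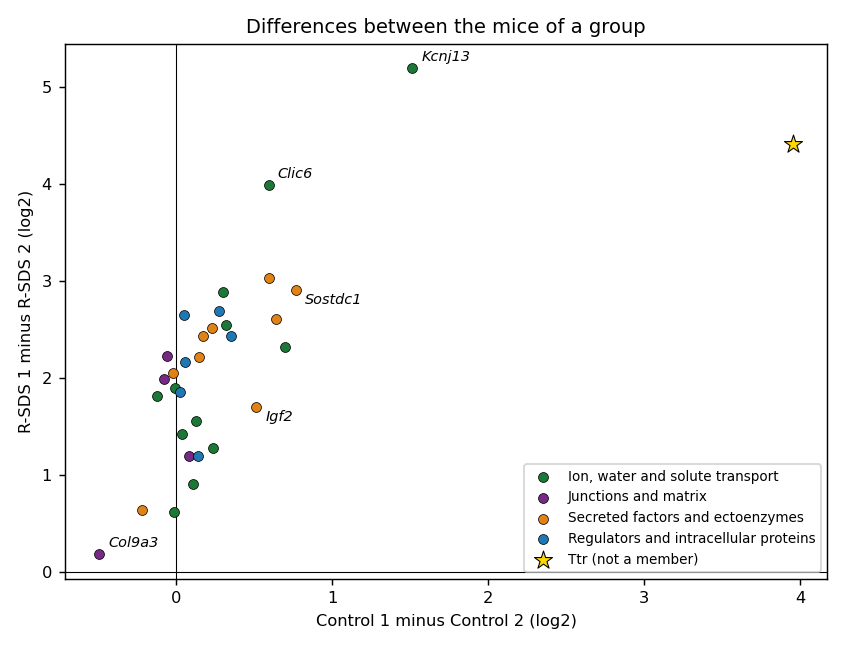
Log2 difference of Control 1 minus Control 2 (horizontal axis) and of R-SDS 1 minus R-SDS 2 (vertical axis) for the 31 choroid plexus genes (coloured by role) and Ttr (star). All 31 genes lie above 0 on the vertical axis, at 0.18 to 5.19, while on the horizontal axis they spread from -0.49 to 1.52 and Ttr stands at 3.95.

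Ttr was highest in R-SDS 1, as 30 of the 31 members were, but it differed from them within number 2 and between the controls. It measured 13.21 in R-SDS 1 and 8.79 in R-SDS 2, against 11.38 in Control 1 and 7.43 in Control 2. R-SDS 2 exceeded Control 2 by 1.36 for Ttr, above the highest member (0.53), and Control 1 exceeded Control 2 by 3.95, above the highest member (1.52). In R-SDS 1 it lay near the highest value of any gene on that array (13.42), so its difference within number 1 (1.83) is not ranked against those of the members.

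Other genes of the choroid plexus, from a list of 25 that holds none of the members, followed R-SDS 1 to a smaller extent. Their median level in Control 1 was 6.76, beside 5.57 for the members, and the part of this level in the smaller extent was not tested. The list and the members were both chosen with earlier results of these data known. Of 24 measured, 22 averaged higher in the R-SDS mice, with a median difference of 0.70 within number 1 and of -0.01 within number 2, and 8 were over 1 within number 1. The glucose transporter gene Slc2a12 measured 8.28 and 6.03 in R-SDS 1 and 2, against 6.22 and 5.94 in Control 1 and 2. Igfbp2, which encodes a carrier of insulin-like growth factors, measured 9.26 and 6.95 in R-SDS 1 and 2, against 7.52 and 6.81 in Control 1 and 2. The list of secretion machinery that the epithelium shares with neurons and glia (pumps, bicarbonate and chloride carriers, and their kinases, 17 measured) had a median of 0.13 within number 1 and of 0.04 within number 2. The copper transporter gene Slc31a1 led it with 8.06 and 6.83 in R-SDS 1 and 2, against 6.84 and 6.47 in Control 1 and 2, before the potassium chloride cotransporter gene Slc12a7 (0.73 within number 1). By limma, 0 genes of either list passed the adjusted p.

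Among the genes that are neither members nor Ttr, the 10 whose value in R-SDS 1 most exceeded each other array were picked for this pattern and are described only. They were Slc2a12 (by 2.06), Igfbp2 (1.73), the retinoid transporter gene Abca4 (1.71), Drc7 of the motile cilium (1.69), the complement inhibitor gene Cd59a (1.62), Tc2n (1.50), the heme synthesis gene Alas2 (1.47), the paraoxonase gene Pon3 (1.36), the carbonic anhydrase gene Car12 (1.34) and Lcn2 (1.33). Of these, 3 were on the list of other choroid plexus genes (Slc2a12, Igfbp2 and Car12). Ranked with all genes by this measure, the first 10 were all members, and 18 of the first 20 were. The members were listed with earlier results of these arrays known, so this ranking, too, is a description and no separate evidence. Lcn2, the lipocalin gene, was high in both R-SDS mice (7.80 and 6.47) against 4.57 and 4.56 in Control 1 and 2, unlike most members.

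Marker genes of cell types beside the choroid plexus moved less than the members. Ependymal genes (15 measured) had a median difference of 0.28 within number 1 and of -0.11 within number 2, with Mia at 0.58 and Ak7 at 0.51 within number 1. On the linear scale the summed level of the ependymal list reached 1218 and 1073 in R-SDS 1 and 2, against 1001 and 1142 in Control 1 and 2. Genes of meningeal fibroblasts (15 measured) had medians of 0.31 and -0.0016, led by the proteoglycan gene Bgn (0.83) and the matrix protein gene Mgp (0.71) within number 1, and summed to 2843 and 1989 in R-SDS 1 and 2, against 2190 and 1810 in Control 1 and 2. All 15 meningeal genes were higher in R-SDS 1 than in Control 1, and none by over 1. Endothelial genes (14 measured, 13 of them higher in R-SDS 1 than in Control 1) had medians of 0.21 and 0.07 and summed to 3635 and 2809 in R-SDS 1 and 2, against 2960 and 2618 in Control 1 and 2, with Vwf at 0.86 and Slc2a1 at 0.51 within number 1. A linear sum weighs the brightest genes of a list most, such as Slc2a1 among the endothelial genes (10.38 in R-SDS 1, 9.87 in Control 1). The members summed to 9988 and 1993 in R-SDS 1 and 2, against 2472 and 1986 in Control 1 and 2. The part of these cells in the differences of the members was not tested.

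Genes of the hippocampus itself differed little between the arrays. Hippocampal neuron genes (12 measured) had medians of 0.05 within number 1 and 0.12 within number 2, led by Dsp (0.47) and C1ql2 (0.45), and summed to 16451 and 15040 in R-SDS 1 and 2, against 16026 and 14651 in Control 1 and 2. Astrocyte genes (10 measured) had medians of 0.13 and 0.08, with S1pr1 at 0.28 and Slc1a3 at 0.25. Oligodendrocyte genes (12 measured) went the other way within number 1, with medians of -0.19 and 0.03, Aspa at -0.72 and Ermn at -0.55. Some members are also known from other organs, and the lists of these did not follow R-SDS 1, but most of their genes were dim. In R-SDS 1 the median level was 4.59 for retinal pigment epithelium and 4.65 for hepatocytes, under the lower quartile of tested transcripts (4.93). In Control 1 these medians were 4.475 and 4.91, beside a lower quartile of 4.88. How far such low levels limit a difference was not tested, and neither was the part of these organs in the differences of the members. The retinal pigment epithelium list (10 measured) had medians of 0.02 and -0.08, with Rpe65 at -0.33 and Lrat at 0.27 within number 1, and the hepatocyte list (12 measured) had medians of -0.13 and -0.28, with Serpina1c at -1.96 and Alb at -1.78 within number 1. Both were also lower in R-SDS 2 than in Control 2, with differences of -2.02 for Serpina1c and -1.62 for Alb. By limma, 0 genes of these lists passed the adjusted p.

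**Figure D4:**
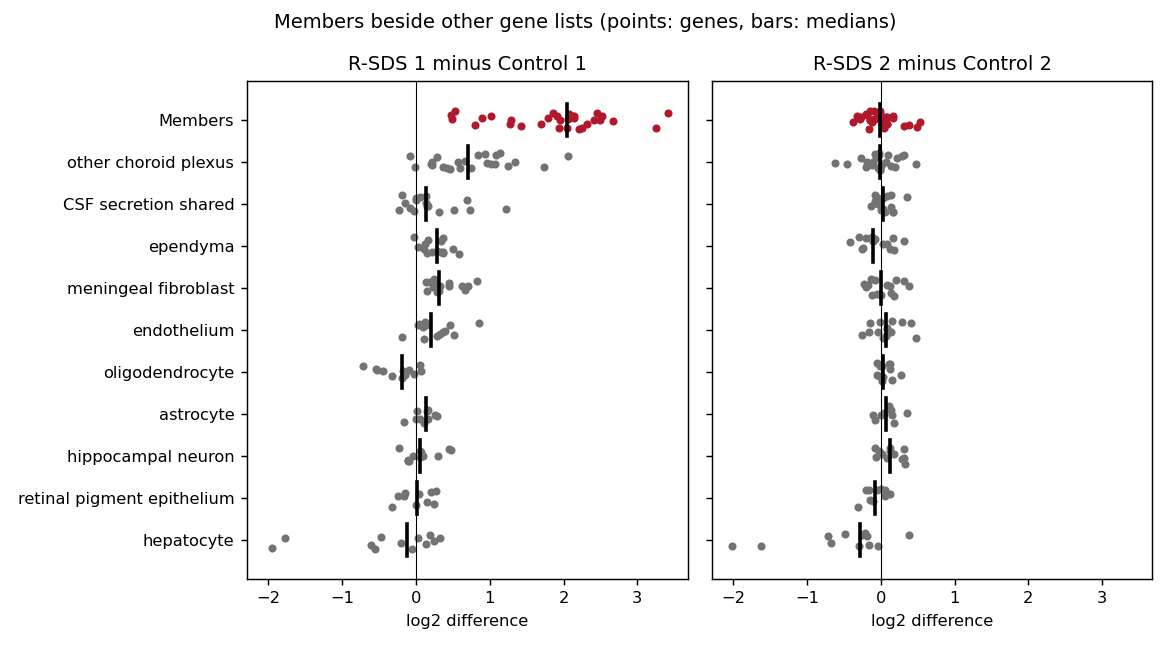
Log2 difference (horizontal axes) of R-SDS 1 minus Control 1 (left) and of R-SDS 2 minus Control 2 (right) for the choroid plexus genes described here (top row, red) and the other gene lists (grey), with 1 point per gene, spread vertically for sight only, and a black bar at the median. The median of the top row is 2.04 on the left and -0.01 on the right, and that of the other choroid plexus genes is 0.70 and -0.01.

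The precision of these values is limited by 2 arrays per group and by dim transcripts. The table holds no detection calls, and the members below the lower quartile of all tested transcripts numbered 1 in R-SDS 1 and 9 in R-SDS 2, against 8 in Control 1 and 10 in Control 2. For genes so near the lower end of the scale, a log2 difference may understate the change.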

How the data were processed

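Hippocampal RNA of 4 mice (2 R-SDS, 2 Control, 1 array each) was analysed from the values table of the series, with groups and array numbers as in the titles. No label says whether mice shared a litter or a batch, and a p-value here covers only the spread between these arrays. The deposited values are log2 values that, per the labels, the authors made in Affymetrix Expression Console with the RMA method. Which genome build they used was not given in the sources used here. No detection call or depth is attached to a value. Of 35556 rows, 21789 carried a single gene symbol in GEO's platform table (19938 genes), while 1621 carried several symbols and 12146 had no entry. Symbols were looked up by Entrez identifier in the RefSeq table of GRCm38.p6, where 99.6% matched and 0 changed.

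R-SDS and Control were compared on all 21789 rows with limma 3.58.1 in R 4.3.3 (lmFit and eBayes, 2 residual and 4.07 prior degrees of freedom, no filter), two-sided, with Benjamini-Hochberg adjustment over all rows and a threshold of 0.05. SE is limma's moderated standard error. Members, roles and lists are described by counts and medians beside all genes, each gene being its brightest row. The members and the lists were chosen with earlier results of these data known. Every member is named, with the 2 genes of each list that differed most within number 1 and the 10 other genes that stood out most in R-SDS 1. Predicted genes, small RNAs, chemosensory receptors and defensins were passed over in these 10, the last chosen after seeing the values. Kcne1, Rcan1, Smim11 and Fam243 were named for their position. Alternatives were a further quantile normalization, a filter on dim rows, the mean of a gene's rows, the replicate number as a block, leaving out each array, and the t-test that the study's methods name. The fit was tested on simulated data. Plots were drawn with matplotlib 3.10.9.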

Additional observations from a re-analysis of the deposited data

How the results depend on the processing

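The median difference of the members (1.01) stayed at 0.96 to 1.05 after a further quantile normalization, a filter for rows at or above the median level, the mean of a gene's rows and the replicate block, and ranged from -0.12 to 2.11 when single arrays were left out. The number of members with a higher mean ranged from 7 to 31 with single arrays left out, and was 14 of the 14 members left by the filter. Without R-SDS 1 it was 7, namely Aqp1, Cltrn, Tmem72, Kcne2, Col9a3, Trpv4 and Calml4, and the other 24 differences lay between -1.03 (Kcnj13) and -0.0027 (Sulf1). Members called at the adjusted p ranged from 0 to 25, and transcripts from 0 to 49, with single arrays left out, both highest without R-SDS 2 (2 transcripts and 0 members were called without R-SDS 1). In the fit without R-SDS 2, Cab39l, Cdh3, Col9a3, Slc4a2, Slco1a5 and Wfikkn2 were not called. All settings that kept the 4 arrays called 0. Each fit with an array left out set 1 array against 2, so its residual spread came only from those 2 arrays. The members were also listed with earlier results of these arrays known. The calls of these fits are therefore a description and no evidence for a difference between the groups. Members past a log2 difference of 0.5 and an unadjusted p under 0.05 (2 in the fit reported) numbered 0 (without Control 2) to 29 (without R-SDS 2) with single arrays left out, 1 without R-SDS 1 or without Control 1, 0 after the filter, which removed Aqp1 and Cltrn, 0 with the methods' t-test and 4 with the replicate block. Samples of the same number deviated together from their group means (r = 0.52 over 21789 transcripts), but with 2 pairs and no label for a shared source they share only a number. With the block, 1 residual degree of freedom was left. The share of all genes past both cut-offs is given here only for the fit reported. The member counts of the other settings therefore have no background to be read against. The medians within the numbers were 2.00 to 2.07 for number 1 and -0.01 to 0.04 for number 2 under the alternatives that apply. The causes of these changes were not tested.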

Other observations

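Rows without a single gene symbol (13767) were looked at separately and are unnamed here. R-SDS 1 exceeded each other array by over 1 in 24 of them and R-SDS 2 did so in 40, against 31 in Control 1 and 58 in Control 2, so the rows that stood out were not more frequent in R-SDS 1. Among genes with a symbol, the same count came to 63 for R-SDS 1 and to 0 for R-SDS 2, against 1 in Control 1 and 0 in Control 2.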
